A study of Homo sapiens with 12 samples.

Results

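Long intergenic noncoding RNAs are transcripts that lie between protein-coding genes and carry no long reading frame. Those catalogued without a functional name are given a LINC symbol followed by a number. The genes described here are the 109 genes of this kind that had a probe set annotated to that gene alone with a mean signal of at least 60 over 12 arrays, with the brightest such probe set taken for each gene. They were chosen from 839 LINC genes with a probe set of their own, among 19775 genes in all. The mean signal is therefore what selected them, and it is given below as a description only. Just inside the limit lay LINC00582 with a mean of 60.1, LINC01465 with 60.8 and LINC01208 with 61.6, and just outside it lay LINC00958 with 58.9, LINC00472 with 58.5 and LINC00630 with 58.4. All 109 passed the filter on dim probe sets, at a mean signal of 33.6, and were among the 14061 genes tested.

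Transcript levels were read with Affymetrix U133 Plus 2.0 arrays in SW780, a human bladder carcinoma line grown in Leibovitz L-15 medium, and A549, a human lung adenocarcinoma line grown in RPMI1640. Cells of each line were transfected (Lipofectamine 2000) with siKDM3A or with 1 of 2 control siRNAs, siFFluc and siEGFP. KDM3A, the target of siKDM3A, is an enzyme that takes methyl groups off lysine 9 of histone H3, a mark of silent chromatin. RNA came from cells taken 24 h after transfection at 100 nM, with 2 arrays for each of the 6 groups. The labels do not say whether the 2 arrays of a group were separate cultures, and the spread behind the p-values may therefore be technical. Medium and cell line changed together and cannot be told apart in any comparison between lines.

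Noncoding transcripts of this class are made by the same RNA polymerase as messenger RNAs. Many are retained in the nucleus, many are present at low levels, and their expression tends to be more restricted to particular cell types than that of protein-coding genes. Some act on the gene beside them, some act as scaffolds for proteins, and for most no function is known. Nuclear transcripts that are not protected are degraded by the RNA exosome.

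The quality of the arrays is given first. Median signal over all probe sets was 58.0 and 54.2 on the siKDM3A arrays of SW780, against 50.2 to 54.1 on its control arrays, and 52.9 and 51.7 on the siKDM3A arrays of A549, against 57.3 to 58.9 on its control arrays. The arrays of siKDM3A thus lay above the controls in one line and below them in the other, and the part of this in the results was not tested. Replicate arrays correlated at 0.982 to 0.989 across genes, which are not independent replicates. The SD of the log2 difference between replicates was 0.438 to 0.562 over the 109 LINC genes, against 0.359 to 0.483 over all genes tested. KDM3A itself had a signal of 197 and 223 on the siKDM3A arrays of SW780, against 359 to 433 on its control arrays, which left 53.3% (log2 change −0.86 ± 0.10 SE, adjusted p = 2.74e-04). In A549 it had 693 and 712 on the siKDM3A arrays, against 1300 to 1519 on the control arrays, which left 50.5% (−0.97 ± 0.10, adjusted p = 8.34e-05). Of 10 urothelial markers tested, 9 were higher in SW780 and 1, the basal keratin KRT5, was lower, and UPK3A was near background in both lines (6.35 in SW780 controls, 6.25 in A549 controls). Of 5 alveolar markers tested, LAMP3 and SFTPC were higher and SFTPB, NAPSA and ABCA3 were lower in SW780, and NKX2-1, SFTPD, SCGB1A1 and SLC34A2 were below the filter. Few lung-specific transcripts were thus found in A549. All 5 general epithelial markers were tested and were higher in SW780.

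The promoters of 5 LINC genes named in the results are printed here, as examples of a motif and not as typical cases. Each runs from 250 bases before to 50 bases after the first start that RefSeq lists for the gene, in build GRCh38.p14. All 5 lie on the plus strand. The first 3 belong to genes that were lower in SW780 than in A549, and capitals mark the letters TGANTCA, the recognition sequence of the AP-1 family of transcription factors (N is any base, and the letters read the same on both strands). LINC00973 lies at chr3:98914316-98914615, with the match at position −185 from the start. LINC00339 lies at chr1:22024941-22025240, with matches at −101 and 36. LINC00963 lies at chr9:129488410-129488709, with the match at 19. The AP-1 letters stood in 8 of the 40 promoters of LINC genes called lower in SW780 (20.0%, against 7.76% of all promoters). They stood in 10 of the 86 LINC promoters at hand (11.6%), and these shares were not tested. The promoters of LINC00473, LINC00312, LINC00662 and LINC02086, all lower in SW780, had none of these letters.
LINC00973: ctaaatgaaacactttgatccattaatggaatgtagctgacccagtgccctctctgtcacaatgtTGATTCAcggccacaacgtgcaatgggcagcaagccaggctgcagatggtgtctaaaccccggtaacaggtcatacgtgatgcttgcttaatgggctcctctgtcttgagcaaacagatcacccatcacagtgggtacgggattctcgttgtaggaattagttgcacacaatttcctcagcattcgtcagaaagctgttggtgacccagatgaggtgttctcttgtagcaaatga
LINC00339: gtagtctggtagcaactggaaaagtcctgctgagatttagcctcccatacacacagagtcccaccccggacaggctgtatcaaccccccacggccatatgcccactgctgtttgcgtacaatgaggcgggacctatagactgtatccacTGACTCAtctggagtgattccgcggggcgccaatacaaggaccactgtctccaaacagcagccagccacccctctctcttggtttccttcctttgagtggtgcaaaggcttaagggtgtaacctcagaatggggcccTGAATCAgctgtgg
LINC00963: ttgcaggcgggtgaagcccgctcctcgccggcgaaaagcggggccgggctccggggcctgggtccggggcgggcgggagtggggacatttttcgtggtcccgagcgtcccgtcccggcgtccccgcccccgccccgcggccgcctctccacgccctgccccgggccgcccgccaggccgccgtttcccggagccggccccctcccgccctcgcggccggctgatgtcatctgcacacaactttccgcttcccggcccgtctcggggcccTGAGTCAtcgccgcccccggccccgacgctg

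The promoter of LINC01806, which was higher in SW780, lies at chr2:161244489-161244788. Its capitals mark TATAAA, the core of a TATA box, which occurs on each strand in overlapping matches at −73 and −71. The promoter of LINC01003, which rose over both lines under siKDM3A, lies at chr7:152463874-152464173. Its capitals mark GGGCGG, the GC box that Sp1 family factors bind, on either strand, with matches at −207, −169, −116, −69 and 9.
LINC01806: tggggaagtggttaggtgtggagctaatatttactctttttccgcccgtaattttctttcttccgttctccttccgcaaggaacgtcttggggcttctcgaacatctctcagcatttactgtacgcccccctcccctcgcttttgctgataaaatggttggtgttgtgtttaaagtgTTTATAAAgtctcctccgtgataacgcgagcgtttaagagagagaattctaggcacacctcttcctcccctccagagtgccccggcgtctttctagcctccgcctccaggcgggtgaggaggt
LINC01003: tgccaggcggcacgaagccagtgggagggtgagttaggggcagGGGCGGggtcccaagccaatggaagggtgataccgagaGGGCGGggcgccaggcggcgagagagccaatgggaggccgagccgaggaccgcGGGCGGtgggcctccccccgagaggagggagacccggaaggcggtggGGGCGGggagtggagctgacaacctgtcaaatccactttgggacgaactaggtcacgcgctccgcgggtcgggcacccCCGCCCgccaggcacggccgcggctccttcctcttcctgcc

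Of the 109 genes, 106 were found in the RefSeq gene table by gene number and 1, LINC00973, by its symbol, and all 107 are classed there as long noncoding RNAs. RefSeq now lists LINC01279 as an older name of CCDC80, a protein-coding gene, and LINC01296 as an older name of the transcribed pseudogene DUXAP9, so these 2 entries are not intergenic noncoding RNAs in the current annotation. The genes lie on 21 chromosomes, most often on chromosome 1 (12 genes) and chromosomes 3 and 9 (10 genes each). A single probe set measured 63 of them, and 46 had more. The probe sets of 10 genes carry the suffix x_at and those of 11 the suffix s_at, which mark probes shared with related sequences or transcripts, and these values can include signal from other RNAs.

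The 109 genes spanned signals of 1.0 to 2451 on single arrays, and 33 had a signal of at least 100 on every array. Of the 8 with the highest mean signal, an order the rule did not use, some passed the test between lines and some did not. LINC00674 had the highest mean, with 1913 ± 188 in SW780 controls and 1494 ± 144 in A549 controls (SD, n = 4 arrays each; log2 difference 0.35 ± 0.08 SE, limma adjusted p = 9.64e-04). LINC00667 had 1107 ± 42.9 in SW780 controls and 688 ± 50.6 in A549 controls (0.68 ± 0.07, adjusted p = 1.47e-06). LINC00938 had 764 ± 56.1 in SW780 controls and 508 ± 26.8 in A549 controls (0.57 ± 0.07, adjusted p = 9.41e-06). In these 3 genes the difference on the brightest probe set was under 2-fold but larger than the spread between arrays. Other LINC00667 probe sets differed by 2.17, 1.70 and 0.52 in the same direction, so its size depended on the probe set. LINC00621 (1328 ± 237 in SW780 controls and 1441 ± 124 in A549 controls, adjusted p = 0.146) and LINC00623 (851 ± 129 in SW780 controls and 1034 ± 295 in A549 controls, adjusted p = 0.130) did not pass the test, and both are read by x_at probe sets.

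**Figure D1:**
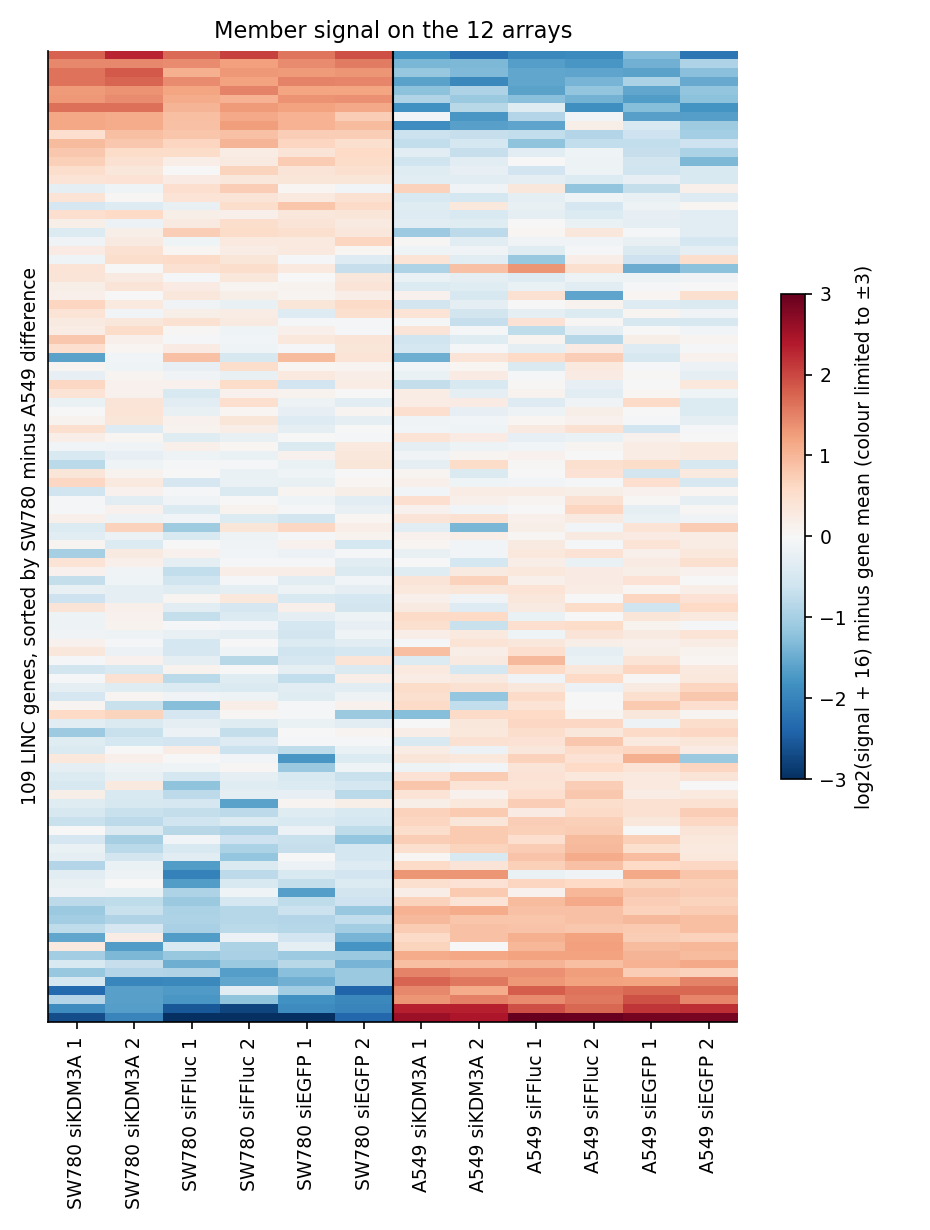
Signal of the 109 LINC genes (rows, sorted by the SW780 minus A549 difference of the control arrays) on the 12 arrays (columns), as log2(signal + 16) minus the mean of the gene, with colour limited to 3 either side. The upper rows are red on the SW780 arrays and blue on the A549 arrays, the lower rows the reverse, and the columns within a line resemble each other.

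The first comparison asked how far these transcripts differ between the lines without knockdown, as SW780 controls minus A549 controls on the log2(signal + 16) scale. The arrays read RNA of whole cultures, so fewer expressing cells and less RNA per cell cannot be told apart. Of the 109 genes, 69 passed the test (63.3%, against 68.9% of all genes tested), 24 of them higher and 45 lower in SW780 (30.1% and 38.8% of all genes were called in these directions). The median difference was −0.34, against −0.11 over all genes, and the median size of the difference was 0.64, against 0.53. These medians depended on the scaling of the arrays: with quantile normalization the LINC genes had −0.15, against −0.05 over all genes, and with median scaling −0.19, against 0.03, where 5025 of the 9499 genes called were higher in SW780. Calls among the LINC genes were then 28 higher and 36 lower with quantile normalization and 26 higher and 38 lower with median scaling. The median SE of the LINC genes was 0.20, against 0.11 for all genes. Differences of at least 2-fold that passed the test were found for 36 genes (33.0%, against 26.8% of all genes), with 11 higher in SW780 (10.4% of all genes) and 25 lower (16.5% of all genes). Differences of at least 4-fold were found for 16 genes (14.7%, against 10.3% of all genes), with 8 in each direction (4.0% of all genes higher and 6.32% lower). The share of called LINC genes was thus near the background and somewhat below it, and the share with large differences was near it and somewhat above it. These sets were not selected alike, since the LINC genes had to pass a higher limit on the mean signal than the background genes. Under that rule a LINC gene dim in SW780 had to be bright in A549, or the reverse. The shares therefore cannot show whether large differences are more common among LINC genes. On the plain signals, 20 genes had all 6 SW780 arrays above all 6 A549 arrays (21.3% of all genes did) and 27 had all 6 below (27.6% of all genes).

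A mean of at least 60 in the controls was reached in both lines by 78 genes, in SW780 alone by 9 and in A549 alone by 22. Since the members were chosen by a mean of 60 over all arrays, a gene dim in one line could enter only by being bright in the other, and these classes are in part fixed by the rule. In the controls, 10 genes had means under the filter in SW780 and 4 in A549. Of the 78 genes, 16 were called higher and 26 lower in SW780, or 53.8% in all, against 73.4% of the 10811 genes of any kind that reached 60 in the controls of both lines. The share called was thus below that background, in sets not matched for signal or SE. The median SE of this difference was 0.20 over the 109 LINC genes, against 0.11 over all genes tested. Its part in the lower share was not tested.

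LINC00960 stood highest among the genes raised in SW780. Its signals were 711, 913, 667 and 845 on the SW780 control arrays, against 42.6, 43.4, 75.7 and 34.3 on the A549 control arrays. The lowest SW780 array was thus far above the highest A549 array, and the difference was 3.65 ± 0.20 (adjusted p = 2.62e-09), or 12.5-fold on the log2(signal + 16) scale, which understates folds of dim genes. Its other probe sets differed by 1.65 and 1.80 in the same direction.

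LINC01503, reported in squamous carcinomas as a transcript driven by the factor TP63, was bright in both lines. It had 1985, 2451, 1969 and 1968 on the SW780 control arrays, against 271, 372, 281 and 367 on the A549 control arrays (2.65 ± 0.12, adjusted p = 2.66e-10). The groups did not overlap, and the A549 signal was itself far above the filter. LINC01806, whose promoter with the letters TATAAA is printed above, had 925, 882, 1093 and 1101 on the SW780 control arrays, against 167, 147, 120 and 170 on the A549 control arrays (2.61 ± 0.11, adjusted p = 1.86e-10). Its other probe set differed by 1.90. The ranges of the groups lay well apart in these 2 genes also.

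The other 5 genes at least 4-fold higher in SW780 were near the filter or below it in A549. LINC02551 averaged 325 ± 30.7 in SW780 controls and 32.8 ± 13.3 in A549 controls (2.84 ± 0.17, adjusted p = 6.34e-09). LINC02984 averaged 432 ± 34.8 in SW780 controls and 51.0 ± 8.39 in A549 controls (2.75 ± 0.14, adjusted p = 1.40e-09). LINC00537 averaged 341 ± 29.6 in SW780 controls and 37.9 ± 10.95 in A549 controls (2.74 ± 0.18, adjusted p = 1.21e-08). Not every probe set of these genes showed this: the other LINC02551 probe set differed by 0.39, and the others of LINC00537 by 0.25 and −0.02. LINC01213 averaged 139 ± 11.3 in SW780 controls and 14.4 ± 15.95 in A549 controls (2.48 ± 0.34, adjusted p = 1.97e-05). LINC02481 averaged 135 ± 17.8 in SW780 controls and 25.4 ± 22.8 in A549 controls (2.01 ± 0.33, adjusted p = 1.16e-04), and its other probe set differed by 2.43.

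In the opposite direction, LINC00973 had the largest difference of the 109 genes. Its signals were 2.5, 2.5, 1.0 and 17.8 on the SW780 control arrays, against 1450, 1335, 1247 and 1233 on the A549 control arrays. It was thus among the brighter LINC genes in A549 and below the filter on every SW780 array, siKDM3A included (11.1 and 27.8). The difference was −5.98 ± 0.22 (adjusted p = 3.45e-11), or 63.1-fold on this scale.

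LINC00473 is known as a transcript induced by cyclic AMP through CREB, and as raised in lung cancers that have lost the kinase LKB1. It had 8.9, 5.4, 22.8 and 20.7 on the SW780 control arrays, against 536, 462, 619 and 658 on the A549 control arrays (−4.30 ± 0.15, adjusted p = 3.05e-11). All SW780 values were below the filter and all A549 values far above it. The next 3 genes had means above 150 in A549 and were near or below the filter in SW780. LINC02582 averaged 13.3 ± 7.13 in SW780 controls and 261 ± 44.3 in A549 controls (−3.26 ± 0.23, adjusted p = 3.55e-08). LINC02086 averaged 38.5 ± 32.01 in SW780 controls and 390 ± 22.2 in A549 controls (−3.09 ± 0.33, adjusted p = 2.00e-06), and its SW780 arrays ran from 7.4 to 80.8 and were thus uneven. The probe set labelled LINC01279 averaged 11.2 ± 6.29 in SW780 controls and 172 ± 18.4 in A549 controls (−2.81 ± 0.30, adjusted p = 1.77e-06). The probe set annotated to CCDC80 itself, the protein-coding gene that now holds this name, was also lower in SW780 (329 ± 24.5 in SW780 controls and 785 ± 67.2 in A549 controls, −1.21 ± 0.09, adjusted p = 4.27e-08).

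The remaining 3 of these 8 genes have been studied in cancer. LINC00963, first described in prostate cancer, averaged 28.6 ± 9.32 in SW780 controls and 197 ± 50.02 in A549 controls (−2.25 ± 0.21, adjusted p = 4.18e-07), and its other probe set differed by −1.19. LINC00312, described as reduced in nasopharyngeal carcinoma, averaged 32.1 ± 9.85 in SW780 controls and 208 ± 15.02 in A549 controls (−2.23 ± 0.19, adjusted p = 2.32e-07). LINC00662 was present in both lines, at 126 ± 7.30 in SW780 controls and 629 ± 58.5 in A549 controls (−2.18 ± 0.11, adjusted p = 9.95e-10). Of the other LINC00662 probe sets, the brightest differed by −1.44, and a dim one ran the other way at 0.75.

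Smaller differences were found in 3 other bright genes that were lower in SW780. LINC00294 averaged 390 ± 24.7 in SW780 controls and 1338 ± 58.4 in A549 controls (−1.74 ± 0.08, adjusted p = 2.23e-10). LINC00339, which lies beside CDC42 in a region linked to bone density, averaged 319 ± 25.1 in SW780 controls and 1116 ± 40.5 in A549 controls (−1.76 ± 0.09, adjusted p = 9.36e-10). LINC01116 averaged 203 ± 32.3 in SW780 controls and 693 ± 44.2 in A549 controls (−1.70 ± 0.13, adjusted p = 5.33e-08). In each of them the control arrays of the lines did not overlap. Among other members studied in cancer, LINC00460 averaged 59.7 ± 24.0 in SW780 controls and 167 ± 39.9 in A549 controls (−1.30 ± 0.25, adjusted p = 4.25e-04). LINC00467, first described in neuroblastoma, averaged 621 ± 55.8 in SW780 controls and 454 ± 56.7 in A549 controls (0.44 ± 0.10, adjusted p = 0.00178). LINC00520 averaged 445 ± 29.5 in SW780 controls and 507 ± 143 in A549 controls and did not pass the test (−0.14 ± 0.18, adjusted p = 0.505), and its A549 control arrays ran from 319 to 647.

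**Figure D2:**
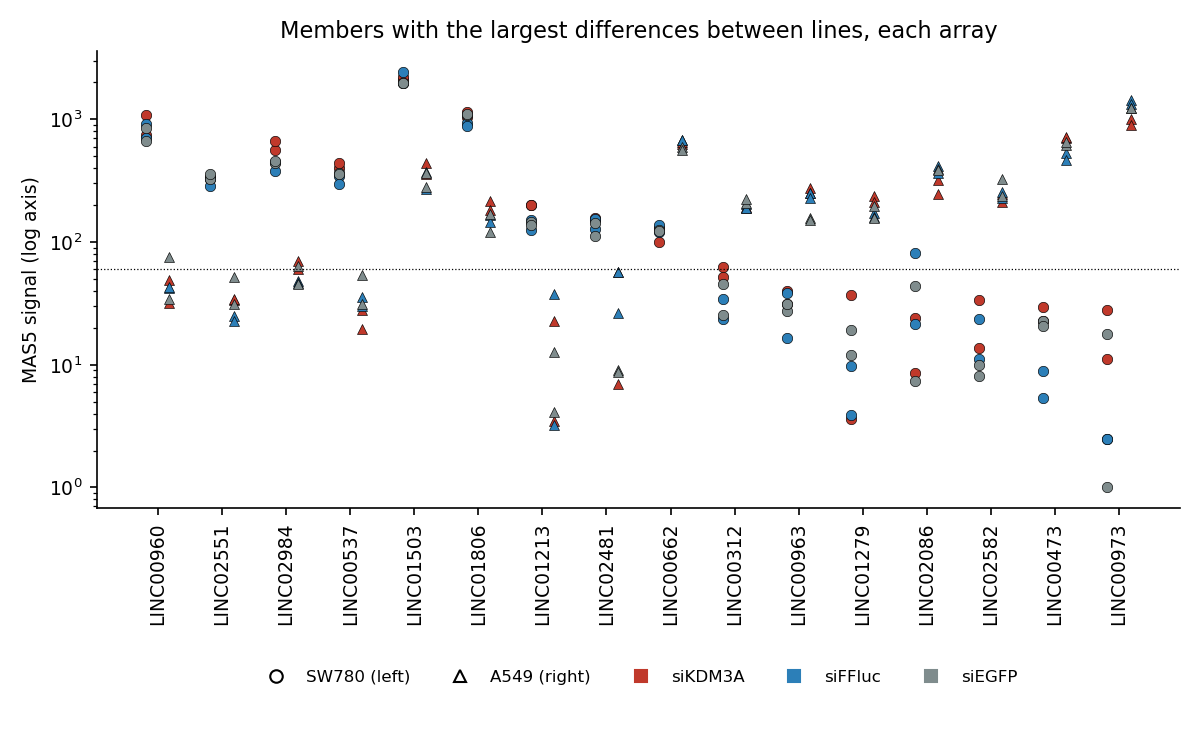
MAS5 signal (log axis) of the 16 LINC genes at least 4-fold different between lines, on each array, with SW780 as circles and A549 as triangles, coloured by siRNA. The dotted line marks a signal of 60. In all 16 genes the SW780 and A549 symbols do not overlap, and LINC00973 spans from 1.0 on an SW780 array to 1450 on an A549 array.

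All 16 of these genes kept the call and the direction under each of 21 other settings, the siEGFP or siFFluc arrays alone and each left-out array included. The size depended on the constant added before the logarithm: LINC00973 ran from −8.15 to −4.31, LINC00473 from −5.39 to −3.01 and LINC00960 from 2.91 to 4.02. A second reading came from other probe sets. Above the filter, 32 LINC genes had 52 other probe sets. Of those, 45 belonged to a gene called between lines, and 34 of the 45 differed in the direction of the main probe set. For genes at least 2-fold different, this held for 16 of 19. An exception at this size was LINC02762, at −1.13 by its main probe set and 0.51 by the other.

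Not all of these LINC genes lie between coding genes, since some, such as LINC00473 and LINC00312, overlap a coding gene. The nearest annotated protein-coding genes on each side, and any that overlap, were read in the same comparison. For 94 LINC genes this gave 149 pairs with a tested neighbour, and the neighbour was called between lines in 107 pairs (71.8%, near the 68.9% of all genes). It differed in the direction of the LINC gene in 64 of them and in the opposite direction in 43. Where the LINC gene was itself called higher in SW780, called neighbours split into 10 in the same direction and 9 in the opposite one, and where it was called lower, into 32 and 18. For scale, of the 9689 genes of any kind called between lines, 4236 were higher in SW780 (43.7%) and 5453 lower. A lower neighbour was thus the commoner call for genes in general. Among the LINC genes at least 4-fold different, 14 had 21 pairs, of which 16 had a called neighbour, 13 in the same direction and 3 in the opposite one. These are counts with no test, and some neighbours belong to 2 LINC genes.

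The largest differences between lines were shared with the neighbour at several loci. DCBLD2, a membrane receptor gene next to LINC00973, averaged 628 ± 28.4 in SW780 controls and 11620 ± 493 in A549 controls (−4.18 ± 0.12, adjusted p = 4.34e-12). PDE10A, a phosphodiesterase gene that overlaps LINC00473, averaged 21.9 ± 17.4 in SW780 controls and 384 ± 60.4 in A549 controls (−3.51 ± 0.22, adjusted p = 8.15e-09). LMCD1, a gene of a LIM domain protein that overlaps LINC00312, averaged 115 ± 31.8 in SW780 controls and 982 ± 25.1 in A549 controls (−2.97 ± 0.15, adjusted p = 1.26e-09). All 3 were lower in SW780, like the LINC gene beside them. TBXT on the other side of LINC00473 was not: it was higher in SW780 (0.87 ± 0.31, adjusted p = 0.0221). S100P, a calcium-binding protein gene beside LINC02481, averaged 23020 ± 3912 in SW780 controls and 479 ± 46.8 in A549 controls (5.53 ± 0.06, adjusted p = 1.47e-15), the direction of LINC02481, while MRFAP1L2 on the other side of that gene differed by −0.05 ± 0.07 (adjusted p = 0.534). HOXB9 beside LINC02086 was lower in SW780 as well (−1.63 ± 0.25, adjusted p = 5.51e-05).

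At other loci the LINC gene and its neighbours differed in direction or size. LINC01503 and LINC00963 lie near each other on chromosome 9 and both have IER5L as the coding gene before them. LINC01503 was higher in SW780 and LINC00963 lower, with IER5L lower like LINC00963 and of similar size (102 ± 61.8 in SW780 controls and 500 ± 80.0 in A549 controls, −2.36 ± 0.38, adjusted p = 9.58e-05). NTMT1, a methyltransferase gene after LINC00963, was also lower in SW780 (−1.33 ± 0.08, adjusted p = 6.48e-09). Beside LINC01213, the actin-binding gene PFN2 differed by 0.00 ± 0.07 (adjusted p = 0.989) and TSC22D2 by 0.14 ± 0.07 (adjusted p = 0.0734). Beside LINC01806, TANK differed by 0.06 ± 0.11 (adjusted p = 0.669) and the proteasome gene PSMD14 by 0.64 ± 0.04 (adjusted p = 2.54e-08). PSMD14 was thus called in the direction of LINC01806. The differences of LINC01213 and LINC01806, at 2.48 and 2.61, were several times those of the tested genes on either side.

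**Figure D3:**
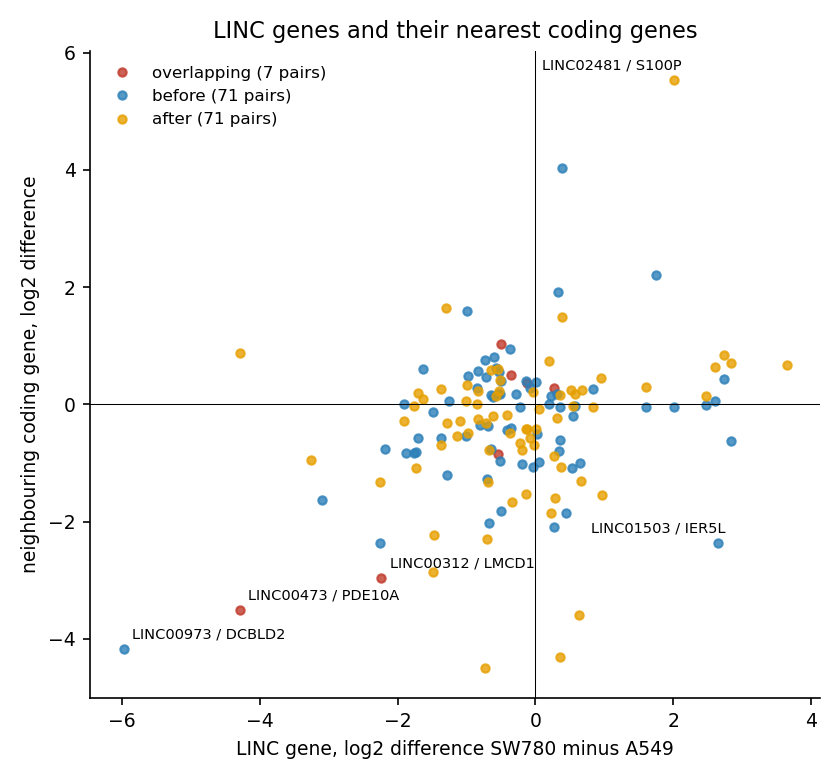
SW780 minus A549 log2 difference of a LINC gene (horizontal) and of its neighbouring protein-coding gene (vertical), 149 pairs, coloured by whether the neighbour overlaps the LINC gene or lies before or after it. The pairs LINC00973 with DCBLD2 and LINC00473 with PDE10A stand at the lower left, LINC02481 with S100P at the upper right, and LINC01503 with IER5L at the lower right, where the signs are opposite.

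RefSeq promoters were at hand for 86 of the 109 genes, at the first listed start of each gene. By a CpG observed to expected ratio of at least 0.6 and a GC content of at least 50%, 34 of them were CpG-rich (39.5%, against 46.9% of 27305 promoters of all genes). The AP-1 letters TGANTCA were found in 10 (11.6%, against 7.76% of all promoters). They stood in 8 of 40 genes called lower in SW780 (LINC00339, LINC00460, LINC00513, LINC00963, LINC00973, LINC01504, LINC02535 and LINC02762), in 0 of 13 called higher and in 2 of 33 not called. The TATA box letters TATAAA were found in 11 of the 86 (3264 of the 27305 promoters of all genes), GGGCGG in 43 (44.6% of all promoters), CCAAT in 39 (35.7%) and the cyclic AMP response element TGACGTCA in 1 (1.98%), each searched on both strands. The promoter with TGACGTCA was that of LINC03011, a gene not called between lines, and that of LINC00473 had no match. These are descriptions of letters in a window, with no test, and the pattern was seen in the same genes that it describes.

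The second comparison asked how these transcripts changed under siKDM3A, as siKDM3A minus the average of the siFFluc and siEGFP groups. Few did. In SW780, 1 of 109 genes passed the test (0.917%, against 11.8% of all genes), and 17 had an unadjusted p under 0.05 (15.6%, against 25.7%). In A549, 2 passed (1.83%, against 11.7% of all genes) and 10 had an unadjusted p under 0.05 (9.17%, against 25.4%). Over both lines, 7 passed (6.42%, against 18.2%), 5 higher (8.86% of all genes) and 2 lower (9.36% of all genes). The difference of the change between lines passed for 0 genes by limma (2.75% of all genes), with 9 at an unadjusted p under 0.05 (18.2% of all genes) and a smallest adjusted p of 0.106.

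The shares called lay below those over all genes, a difference that was not tested, while the sizes of the changes did not. A change of at least 0.585 in size was found for 14 genes in SW780 (12.8%, against 9.13% of all genes) and for 13 in A549 (11.9%, against 7.8%), without regard to the test. The median SE of a change within a line was 0.24 for LINC genes, against 0.14 for all genes. In SW780 the median change was 0.13, against 0.03 over all genes, and both siKDM3A arrays lay above all 4 controls for 17 genes (15.3% of all genes) and below for 7 (13.3%). In A549 the median change was −0.05, against −0.02, and both siKDM3A arrays lay above all 4 controls for 9 genes (17.0% of all genes) and below for 20 (19.9%). The median of the LINC genes in A549 changed sign with the scaling, to 0.04 with quantile normalization (0.02 over all genes) and 0.09 with median scaling (0.12 over all genes). In SW780 it was 0.10 with quantile normalization (0.02 over all genes) and 0.05 with median scaling (−0.07 over all genes). The median signal of the LINC genes was 120.0 and 118 on the siKDM3A arrays of SW780, against 109 to 113 on its controls. In A549 it was 132 and 126 on the siKDM3A arrays, against 148 and 159 with siFFluc and 126 and 124 with siEGFP.

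LINC00525 fell the most clearly. It had 96.0 and 151 on the siKDM3A arrays of SW780, against 231 and 201 with siFFluc and 191 and 173 with siEGFP. Its signals in A549 were 54.0 and 70.4 on the siKDM3A arrays, against 138 and 173 with siFFluc and 126 and 101 with siEGFP. Every siKDM3A array lay below every control array of its line. The change was −0.79 ± 0.16 over both lines (adjusted p = 0.00381), −0.93 ± 0.22 in A549 (adjusted p = 0.0171) and −0.64 ± 0.22 in SW780 (adjusted p = 0.0796). The call over both lines held in all 21 other settings. The call in A549 was lost in 4 of 22, with siEGFP as the only control (adjusted p = 0.107) and without siFFluc replicate 2 (0.0552), siKDM3A replicate 1 (0.171) or siKDM3A replicate 2 (0.0629). Its coding neighbour TNS3, a focal adhesion gene, had no settled direction, since the control siRNAs differed by −1.41 in A549 (siFFluc minus siEGFP, adjusted p = 1.41e-06) and −1.06 in SW780 (adjusted p = 1.74e-05). Its change under siKDM3A over both lines was 0.21 against both controls (adjusted p = 0.0113), 0.83 against siFFluc alone (adjusted p = 1.22e-06) and −0.40 against siEGFP alone (adjusted p = 6.90e-04), the last in the direction of LINC00525.

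LINC01003, whose promoter with GC boxes is printed above, rose. It had 527 and 471 on the siKDM3A arrays of SW780, against 346 and 387 with siFFluc and 458 and 444 with siEGFP. Its A549 signals were 612 and 540 on the siKDM3A arrays, against 380 and 391.9 with siFFluc and 500 and 451 with siEGFP. The siKDM3A arrays lay above all controls in both lines, with a small gap to siEGFP. The change was 0.35 ± 0.08 over both lines (adjusted p = 0.00774), 0.41 ± 0.11 in A549 (adjusted p = 0.0291) and 0.28 ± 0.11 in SW780 (adjusted p = 0.123). Over both lines the call was lost with siEGFP as the only control (0.20, adjusted p = 0.166) and without A549 siKDM3A replicate 1 (adjusted p = 0.0565). In A549 alone it was lost in 6 of 22 settings, the same 2 included (adjusted p = 0.239 and 0.271). KMT2C, a histone methyltransferase gene beside it, also rose over both lines (0.31, adjusted p = 0.0243), a call that was lost against siEGFP alone (0.13, adjusted p = 0.465).

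LINC00621 fell, by an x_at probe set. It had 926 and 1073 on the siKDM3A arrays of SW780, against 1152 and 1126 with siFFluc and 1405 and 1629 with siEGFP. The A549 cells gave 1193 and 1354 on the siKDM3A arrays, against 1411 and 1285 with siFFluc and 1492 and 1575 with siEGFP. The SW780 arrays were below all controls, while in A549 an siKDM3A array lay among the siFFluc arrays. The change was −0.39 ± 0.09 in SW780 (adjusted p = 0.0156) and −0.28 ± 0.06 over both lines (adjusted p = 0.00909). With siFFluc as the only control it was −0.19 in SW780 (adjusted p = 0.271) and −0.14 over both lines (adjusted p = 0.248). The SW780 call was lost in 5 of 22 settings. Besides siFFluc alone, these were no variance trend (limma adjusted p = 0.0616) and the SW780 arrays alone (adjusted p = 0.0501). It was also lost without SW780 siEGFP replicate 2 or SW780 siKDM3A replicate 1. Over both lines the call was lost in 3 of 21 settings, siFFluc alone and without siKDM3A replicate 1 of A549 or of SW780.

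The other 4 genes rose over both lines and passed in neither line alone. LINC02381, which lies between HOXC4 and SMUG1, had 69.2 and 79.1 on the siKDM3A arrays of SW780, against 10.1 and 45.9 with siFFluc and 62.1 and 55.9 with siEGFP. In A549 it had 249.6 and 252 on the siKDM3A arrays, against 77.3 and 82.5 with siFFluc and 218 and 175 with siEGFP. Its signal with siFFluc was far below that with siEGFP in A549, and the siKDM3A arrays stood just above siEGFP. The change was 0.81 ± 0.21 over both lines (adjusted p = 0.0192), which became 1.32 with siFFluc as the only control (adjusted p = 0.00265) and 0.30 with siEGFP as the only control (adjusted p = 0.500).

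LINC03026 showed the same order of groups, with 166 and 205 on the siKDM3A arrays of SW780, against 108 and 137 with siFFluc and 150 and 166 with siEGFP. In A549 it had 284 and 291 on the siKDM3A arrays, against 162 and 189 with siFFluc and 245 and 232 with siEGFP. Over both lines its change was 0.42 ± 0.12 (adjusted p = 0.0261), and 0.23 with siEGFP as the only control (adjusted p = 0.316). LINC00473 had 22.9 and 29.8 on the siKDM3A arrays of SW780, against 5.4 to 22.8 on its controls, all below the filter. In A549 it had 706 and 715 on the siKDM3A arrays, against 462 to 658 on its controls. Its change over both lines was 0.42 ± 0.13 (adjusted p = 0.0430), and 0.16 with siEGFP as the only control (adjusted p = 0.581). LINC02984 had 564 and 663 on the siKDM3A arrays of SW780, against 381 to 457 on its controls, and 70.2 and 59.9 on those of A549, against 45.9 to 63.5. Its siKDM3A arrays were clear of the controls in SW780 and overlapped them in A549. Its change over both lines was 0.38 ± 0.12 (adjusted p = 0.0476), and 0.32 with siEGFP as the only control (adjusted p = 0.172).

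None of the 5 rises was thus called against siEGFP alone, while both falls, of LINC00525 (−0.63, adjusted p = 0.0377) and LINC00621 (−0.43, adjusted p = 0.00232), were. With all controls, LINC03026 held its call in 14 of 21 other settings, LINC02381 in 16, LINC00473 in 9 and LINC02984 in 7. Near the threshold lay LINC00460 in A549, with 91.7 and 59.5 on the siKDM3A arrays, against 112 to 208 on the controls (−0.99 ± 0.31, adjusted p = 0.0551). So did LINC00938 (0.29 ± 0.09, adjusted p = 0.0502) and LINC02352 (−0.86 ± 0.27, adjusted p = 0.0539) in SW780. Dimmer probe sets of these genes changed in SW780 by 0.07 for LINC00938 and 0.09 for LINC02352, whose main probe set is an x_at one. LINC00973, the gene of the largest difference between lines, had 1006 and 907 on the siKDM3A arrays of A549, against 1233 to 1450 on the controls, and did not pass in A549 (−0.45, adjusted p = 0.322). Its neighbour DCBLD2 fell over both lines (−0.62, adjusted p = 0.00135), and also against siEGFP alone (−0.64, adjusted p = 0.00397) and siFFluc alone (−0.60, adjusted p = 0.00413).

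**Figure D4:**
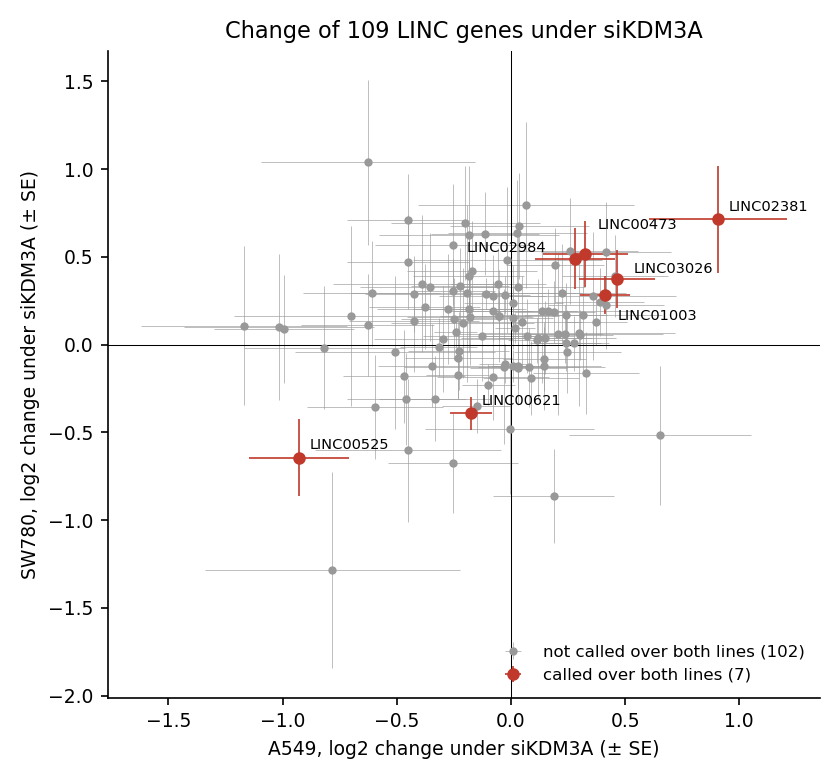
Log2 change under siKDM3A in A549 (horizontal) and SW780 (vertical) of the 109 LINC genes, with bars of 1 SE. The 7 genes called over both lines are red, with LINC00525 at the lower left and LINC02381 at the upper right.

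The third comparison set the control siRNAs against each other, siFFluc minus siEGFP, in each line. It shares its arrays with the siKDM3A comparisons, so the values of both are not independent. In SW780, 1 of 109 genes passed (0.917%, against 5.57% of all genes) and 9 had an unadjusted p under 0.05 (8.26%, against 20.1%). That gene was LINC00621, with the signals given above, at −0.40 ± 0.11 (adjusted p = 0.0442), and it held this call in 5 of 20 other settings. In A549, 1 passed (0.917%, against 2.92% of all genes) and 11 had an unadjusted p under 0.05 (10.1%, against 12.8%).

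The gene in A549 was LINC01875. It had 178 and 91.8 on the siFFluc arrays of A549, against 11.7 and 17.2 on the siEGFP arrays (2.25 ± 0.53, adjusted p = 0.0396). Both siFFluc arrays were above both siEGFP arrays, but they differed from each other, and the siKDM3A arrays of A549, at 25.2 and 126, spanned most of the range between. In SW780 it had 91.3 and 95.9 with siFFluc, against 79.1 and 31.8 with siEGFP (0.70 ± 0.53, adjusted p = 0.502). The call in A549 held in 10 of 20 other settings. LINC02381 had a difference of −1.14 ± 0.35 in A549 (adjusted p = 0.134) and −0.90 ± 0.35 in SW780 (adjusted p = 0.163), neither past the test. LINC00473 differed by −0.71 ± 0.22 in SW780 (adjusted p = 0.0766) and −0.35 ± 0.22 in A549 (adjusted p = 0.589), and LINC01003 by −0.29 ± 0.13 in both SW780 (adjusted p = 0.220) and A549 (adjusted p = 0.353).

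**Figure D5:**
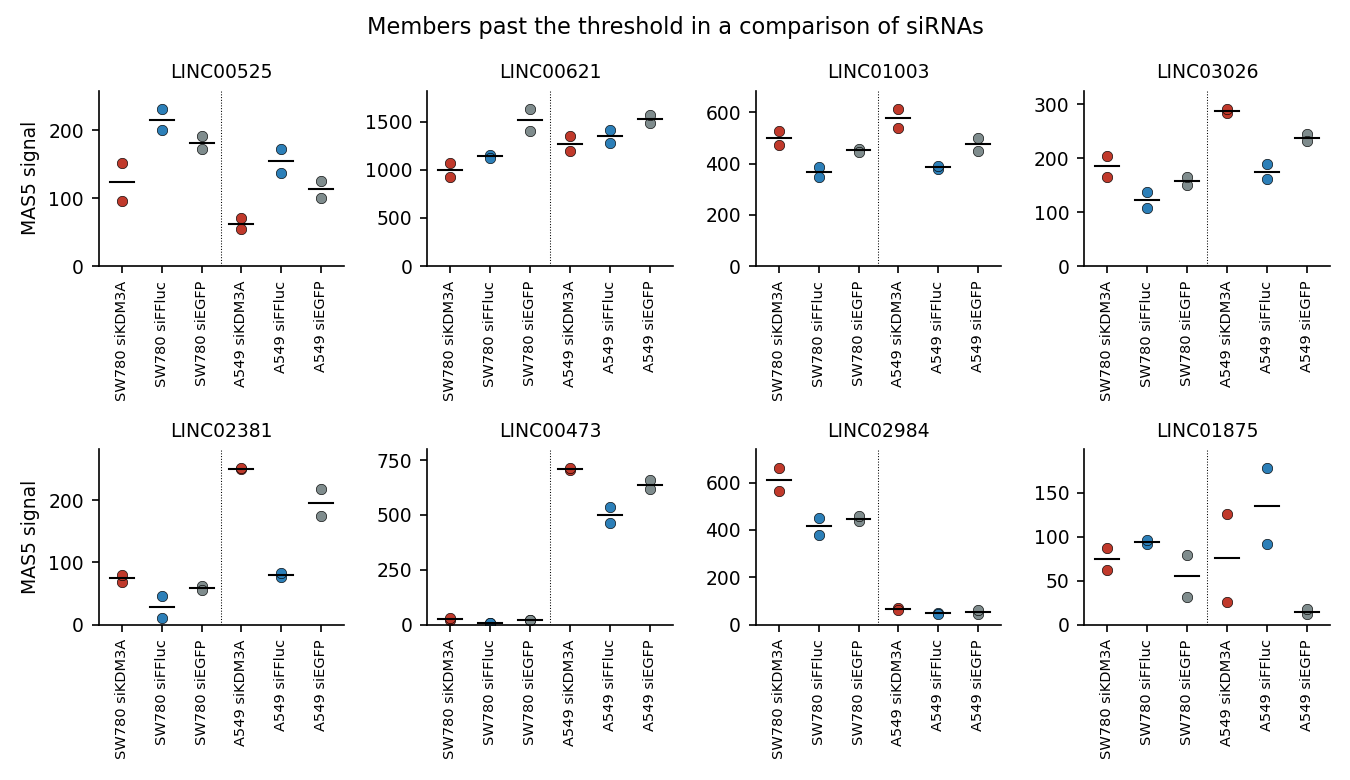
MAS5 signal (linear axes from 0) of the 8 LINC genes past the threshold in a comparison of siRNAs, by line and siRNA, with the 2 arrays of a group as points and their mean as a bar. For LINC02381 in A549 the siFFluc points (77.3 and 82.5) lie far below the siKDM3A points (249.6 and 252) and the siEGFP points (218 and 175).

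For context, 3 gene lists were read in the same fit. Of 45 long noncoding RNAs with other names, 21 were tested. Between lines, 7 were higher (33.3%, against 30.1% of all genes) and 10 lower in SW780 (47.6%, against 38.8%). Over both lines 6 were called under siKDM3A (28.6%, against 18.2% of all genes), of which 4 rose and 2 fell. UCA1, named for urothelial carcinoma, averaged 4518 ± 423 in SW780 controls and 594 ± 39.6 in A549 controls (2.89 ± 0.08, adjusted p = 1.67e-12), and it rose over both lines under siKDM3A (0.35 ± 0.07, adjusted p = 0.00302), also against either control alone. SNHG17, a host gene of small nucleolar RNAs, was lower in SW780 (−3.10 ± 0.06, adjusted p = 1.42e-13) and rose over both lines under siKDM3A (0.25 ± 0.05, adjusted p = 0.00695), but did not pass against siEGFP alone (0.11, adjusted p = 0.313). MIR100HG, a microRNA host gene, fell (−0.50 ± 0.09, adjusted p = 0.00197).

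Of 24 genes of the nuclear RNA exosome and its adaptors, which degrade unprotected nuclear transcripts, 23 were tested. Under siKDM3A over both lines 5 rose: the core subunits EXOSC8 (0.31 ± 0.05, adjusted p = 6.57e-04) and EXOSC3 (0.33 ± 0.06, adjusted p = 0.00194), the nuclease DIS3 (0.19 ± 0.04, adjusted p = 0.00807), and the cofactors C1D (0.21 ± 0.05, adjusted p = 0.0173) and ZCCHC8 (0.20 ± 0.06, adjusted p = 0.0352). These rises are 21.7% of the list, against 8.86% of all genes called higher and 18.2% called in either direction, a difference that was not tested. The other 18 did not pass. The control siRNAs differed for 3 of the 5, DIS3 in A549 (siFFluc minus siEGFP, 0.58, adjusted p = 3.94e-04) and EXOSC8 and EXOSC3 in SW780 (−0.41, adjusted p = 0.0106, and −0.36, adjusted p = 0.0460). Against siFFluc alone the change of DIS3 over both lines was 0.03 (adjusted p = 0.783), and C1D (0.17, adjusted p = 0.0789) and ZCCHC8 (0.18, adjusted p = 0.102) did not pass either. ZCCHC8 also missed the threshold over both lines against siEGFP alone (0.23, limma adjusted p = 0.0518). Only EXOSC8 and EXOSC3 passed over both lines against each control alone. Between lines, 5 were higher (21.7%, against 30.1% of all genes) and 13 lower in SW780 (56.5%, against 38.8%). Of 7 reported protein partners of the long noncoding RNA NORAD, 5 were tested, and over both lines 1 fell under siKDM3A, the topoisomerase gene TOP1 (−0.53 ± 0.06, adjusted p = 5.56e-05).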

How the data were processed

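Total RNA of 12 samples was hybridised to Affymetrix U133 Plus 2.0 arrays. The authors deposited a table of signal intensities on a linear scale, made with MAS5 per the submitters' processing notes, with the MAS5 version not given in the sources used here. A trimmed mean of each array was 496.6 to 497.5, so the arrays had been scaled to 1 target. After 62 control probe sets were removed, 54613 remained, of which 41091 carried 1 gene symbol in the platform annotation, 1801 several and 11721 none. The 47 LINC probe sets shared with other genes were left out.

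Probe sets with a mean signal below the 40th percentile (33.6) were filtered out, and the brightest probe set of each gene was kept, giving 14061 genes. On log2(signal + 16), limma 3.58.1 under R 4.3.3 was fitted with 6 group means and a trended prior variance. All p-values are from limma's moderated test with the Benjamini-Hochberg adjustment over all genes tested, and the threshold was 0.05. Per line, the change is siKDM3A minus the mean of the siFFluc and siEGFP groups, and the line difference was SW780 minus A549 over the controls. The fit was also run on simulated arrays in which genes changed in the A549 siKDM3A group alone. Those arrays held no differences between lines or control siRNAs, so the recovery of such differences was not covered. With 2 arrays a group, their number limits the precision.

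The LINC genes, the lists and the tests were chosen with earlier results of these data known. Named are the genes past the threshold in each comparison (the 8 largest in each direction where over 12 passed), the 8 of highest mean signal, those at the limit of 60, those with a RefSeq protein, a list studied in cancer, coding neighbours and up to 4 genes per context list. A few named for nearness to the threshold, and LINC02762, were chosen after their values were seen. Promoters and gene classes came from RefSeq tables of GRCh38.p14, and neighbours from its gene order. Alternatives were 2 other added constants, no filter, quantile normalization, median scaling, no variance trend, a replicate block, each control alone, each line alone and each array left out. Plots used matplotlib 3.10.9 and Python 3.11.15.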

Additional observations from a re-analysis of the deposited data

How the results depend on the processing

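The 69 calls between lines ranged from 53 (siEGFP alone) to 70 over all settings, and 61 to 70 with an array left out. The low counts under siKDM3A moved more, and equal counts need not hold the same genes. In SW780, the 4 genes called with siFFluc alone and the 1 called with no variance trend all rose. The 1 gene of the main fit in SW780, LINC00621, fell and was not among them. In A549, 2 genes became 5 with 64 added before the logarithm, 5 with quantile normalization, 6 with median scaling, 0 with siEGFP alone, 4 with siFFluc alone and 12 with the A549 arrays alone, and 0 to 4 with an array left out. In SW780, 1 became 3 with 1 added, 4 with 64 added, 3 with quantile normalization, 2 with median scaling, 2 with siEGFP alone, 4 with siFFluc alone and 0 with the SW780 arrays alone, and 0 to 4 with an array left out. Over both lines, 7 became 4 with no filter and 2 with siEGFP alone, and 2 to 8 with an array left out. The difference between lines went to 2 with median scaling and to 0 to 1 with an array left out. Between controls in A549, 1 became 2 with 64 added and 0 with no filter, with no variance trend and with the replicate block, and 0 to 2 with an array left out. In SW780, 1 became 2 with 1 added and 0 with no filter, quantile normalization, median scaling or the SW780 arrays alone, and 0 to 3 with an array left out. The cause of these moves was not tested.

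Replicate numbers did not pair the arrays: replicate differences correlated between groups at −0.03 to 0.02 across genes. With the replicate block the counts were 69 between lines, 1 in SW780, 3 in A549, 5 over both lines, 0 for the difference, and 1 in SW780 and 0 in A549 between controls. Median scaling moved the median change of all genes in A549 to 0.12 (main −0.02) and that of the difference to −0.21 (main 0.04), so directions of small changes depend on the scaling. No call of a named LINC gene changed direction, but that of the coding neighbour TNS3 did with siEGFP as the only control. Many LINC genes lie close to the background of the array, and the signals give no detection calls, so a low signal is only a bound and the size of large differences depends on the added constant.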

Other observations

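A further 95 LINC genes passed the filter on dim probe sets with mean signals under 60. The background of all genes tested includes brighter genes, so the shares below do not compare sets of equal signal. They cannot show whether dim LINC genes differ less than other dim genes. Between lines, 8 were called higher and 13 lower in SW780, or 22.1% in all, against 68.9% of all genes. Under siKDM3A, 3 fell in A549 (3.16%, against 11.7% of all genes called), 1 rose and 1 fell in SW780 (2.11%, against 11.8%), and 1, LINC00482, fell over both lines (1.05%, against 18.2%). In A549, LINC01355 had 5.1 and 2.2 on the siKDM3A arrays, against 28.5 to 50.5 on the controls (−1.47 ± 0.33, limma adjusted p = 0.0132). LINC00661 had 18.2 and 12.6 on the siKDM3A arrays of A549, against 46.5 to 62.7 on the controls (−1.19 ± 0.28, adjusted p = 0.0154). The siKDM3A arrays of A549 lay far below all controls in both genes.

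LINC00656 was the 1 LINC gene past the test of a difference in change between lines (SW780 minus A549, 2.44 ± 0.53, adjusted p = 0.0344). It had 43.4 and 56.7 on the siKDM3A arrays of SW780, against 12.7 to 31.2 on its controls, and did not pass there (0.85 ± 0.38, adjusted p = 0.176). In A549 it had 15.5 and 4.4 on the siKDM3A arrays, against 42.0 to 71.0 on the controls (−1.59 ± 0.38, adjusted p = 0.0173). In SW780, LINC02172 rose to 100.1 and 76.3 on the siKDM3A arrays, against 10.0 to 31.5 on the controls (1.39 ± 0.38, adjusted p = 0.0313), and LINC00482 fell to 22.4 and 10.8 on the siKDM3A arrays, against 41.9 to 85.5 on the controls (−1.14 ± 0.32, adjusted p = 0.0372). These are dim probe sets, with means over all arrays of 37.4 to 57.2, and the genes were named after their values were seen.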
